A study of Mus musculus with 10 samples.

Results

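The genes described here are 9 genes linked to quiescence, the resting state of T cells: Btg1, Btg2, Btg3, Tob1 and Tob2 of the BTG/TOB family, the Schlafen genes Slfn1, Slfn2 and Slfn5, and Pdcd4. They were chosen by name, with earlier results of these data known. All 9 were found once among the 57010 genes of the deposited table, and all 9 passed the filter on low counts among 18966 genes tested. RNA was sequenced in bulk from splenic CD8+ T cells of 5 mice, with 1 library per mouse from cells stimulated by anti-CD3/CD28 beads over 24 h and 1 from cells kept without beads over that time. The groups were activated cKO cells (n = 3 mice), activated control cells (n = 2), rested cKO cells (n = 3) and rested control cells (n = 2). The cKO mice had loxP sites in both Dusp2 alleles and 1 copy of E8I-cre (Dusp2fl/fl-E8I-cre+/-). Control mice carried the same floxed alleles without cre (Dusp2fl/fl-E8I-cre-/-), so cre itself and the loss of Dusp2 cannot be told apart. E8I-cre is driven by an enhancer of the Cd8 locus and acts in mature CD8+ T cells. Males were cKO mice 1 and 2 and control mouse 1, and females were cKO mouse 3 and control mouse 2. Ages are not given in the labels.

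A resting T cell is kept small and out of cycle by active brakes. BTG and TOB proteins form 1 family, which binds the CCR4-NOT deadenylase complex, so that poly(A) tails shorten and messenger RNA decays. BTG1 and BTG2 act this way in naive T cells, and TOB1 was described as a brake on activation in human T cells. Schlafen proteins restrain growth or act on tRNA, and mice with mutant Slfn2 have T cells that lose quiescence. PDCD4 binds the RNA helicase eIF4A and blocks cap-dependent translation until it is degraded through the mTOR and S6 kinase pathway.

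Libraries held 51203786 to 65135435 counts. Levels in CPM relate a gene's count to the library total, scaled by TMM, a factor that corrects for a few highly expressed genes. Dusp2 checked the genotype, at 46.4 to 56.3 CPM in activated cKO cells against 292 and 299 CPM in activated control cells, and at 24.8 to 28.1 CPM in rested cKO cells against 87.8 and 97.4 CPM in rested control cells. All 10 genes chosen to check activation separated every activated from every rested library. For cKO mouse 3 the sample titles disagree with the remaining labels, and its groups were taken from genotype, treatment and library name. The 6 defining CD8 T cell markers summed to between 2340 and 2720 CPM. Among B cell markers, Ms4a1, Pax5 and Ebf1 were each at most 0.134 CPM in any library, and Cd79a and Cd79b ranged from 0.303 to 0.800 CPM and from 2.21 to 5.46 CPM. Cd79b was lower in activated than in rested cells, with log2 fold changes of -1.02 in cKO (adjusted p = 1.93e-05 by edgeR) and -1.07 in control cells (adjusted p = 0.000109). Myeloid markers summed to between 21.3 and 26.3 CPM, nearly all Cst3, and NK and innate-like markers to between 8.5 and 16.8 CPM. Erythroid and platelet markers summed to at most 0.174 CPM. Markers of CD4 T cells summed to 15.8 to 34.9 CPM in activated cKO, 14.7 to 23.4 CPM in activated control, 5.73 to 10.1 CPM in rested cKO and 3.49 to 6.05 CPM in rested control cells, with Cd4 itself at most 1.22 CPM and Zbtb7b, a transcription factor of the CD4 lineage, at 2.15 to 31.9 CPM. Their part in the results was not tested. In bulk RNA, fewer cells of a type and less RNA per cell cannot be told apart.

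Within the table's mm39 coordinates the 3 Schlafen genes lie together on chromosome 11. Slfn5 (ENSMUSG00000054404) spans 82842175 to 82855666, Slfn2 (ENSMUSG00000072620) 82955938 to 82961504 and Slfn1 (ENSMUSG00000078763) 83007675 to 83013496, so that 171.3 kb hold all 3. Tob1 (ENSMUSG00000037573) is on the same chromosome at 94102280 to 94106321. The others are scattered: Btg1 (ENSMUSG00000036478) at 96452868 to 96458671 of chromosome 10, Btg2 (ENSMUSG00000020423) at 134002908 to 134006858 of chromosome 1, and Btg3 (ENSMUSG00000022863) at 78129525 to 78174080 of chromosome 16. Tob2 (ENSMUSG00000048546) is at 81732473 to 81742997 of chromosome 15 and Pdcd4 (ENSMUSG00000024975) at 53880662 to 53918291 of chromosome 19. Another gene of the table overlaps 4 of the 9. Opposite Slfn2 lies the long non-coding RNA gene Gm20234, with 169 to 240 counts in activated and 509 to 785 counts in rested libraries, at most 3.38% of the Slfn2 count. Cxadr, on the other strand, and Gm49590, on the same strand, overlap Btg3 and reached at most 16.6% and 11.7% of its count in a library. Since counting by strand is not stated, reads in such overlaps are uncertain; for Tob2 and Slfn5 the overlapping gene held at most 0.57% and 0.512% of the member's count.

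Levels can be compared between genes only per length, and the deposited FPKM values (counts scaled by gene length and by library total) serve for this. The 9 genes spanned a wide range of FPKM. In activated cells Slfn2 was highest, at 219 ± 16.5 FPKM in cKO and 213 ± 18.3 FPKM in control cells (SD, n = 3 and 2), above 99.0% of all genes tested in both. Btg1 came next, at 164 ± 7.15 FPKM in activated cKO and 163 ± 5.80 FPKM in activated control cells. Slfn1 followed at 111 ± 12.3 FPKM in activated cKO and 112 ± 9.58 FPKM in activated control cells, and no library of it overlapped one of Btg1. Below them stood Btg2 (cKO 66.3 ± 8.39 and control 65.4 ± 10.7 FPKM) and Pdcd4 (cKO 43.4 ± 6.95 and control 46.3 ± 6.28 FPKM). Tob2 lay above Tob1, at 21.5 ± 0.555 against 17.9 ± 3.82 FPKM in activated cKO cells, where their libraries overlapped, and at 21.7 ± 0.724 against 18.0 ± 1.90 FPKM in activated control cells, where they did not. Btg3 (cKO 4.10 ± 0.335 and control 4.22 ± 0.0374 FPKM) and Slfn5 (cKO 0.819 ± 0.158 and control 1.09 ± 0.134 FPKM) were lowest.

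In rested cells the order of these levels differed at several places. Slfn2 was again highest, at 232 ± 16.1 FPKM in rested cKO and 243 ± 13.8 FPKM in rested control cells. Slfn1 stood above Btg1, at 164 ± 9.21 FPKM in rested cKO and 164 ± 9.40 FPKM in rested control cells. Btg1, at 134.5 ± 8.36 FPKM in rested cKO and 135 ± 1.27 FPKM in rested control cells, overlapped Pdcd4, at 128 ± 6.06 FPKM in rested cKO and 132 ± 3.66 FPKM in rested control cells. Pdcd4 thus lay above Btg2 at rest, where Btg2 had 91.9 ± 9.06 FPKM in cKO and 96.3 ± 1.42 FPKM in control cells. Tob1 lay above Tob2, at 46.4 ± 2.83 against 15.2 ± 0.245 FPKM in rested cKO cells and at 45.3 ± 1.77 against 14.0 ± 0.418 FPKM in rested control cells. Btg3 and Slfn5 were lowest and overlapped each other, at 2.47 ± 0.313 and 2.15 ± 0.524 FPKM in rested cKO cells and at 2.47 ± 0.0768 and 2.53 ± 0.719 FPKM in rested control cells.

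Summed over the 5 BTG and TOB genes, the level was 257 to 294.5 FPKM in activated cKO, 260.2 to 285 FPKM in activated control, 273 to 306 FPKM in rested cKO and 291 to 294 FPKM in rested control cells. The share of Btg1 in this sum was 58.2% to 61.1% in activated cKO and 58.7% to 61.2% in activated control cells, against 44.7% to 47.2% in rested cKO and 45.4% to 46.6% in rested control cells. Activated and rested libraries thus overlapped in the sum in cKO cells and not in control cells, and in neither genotype in the share of Btg1.

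**Figure D1:**
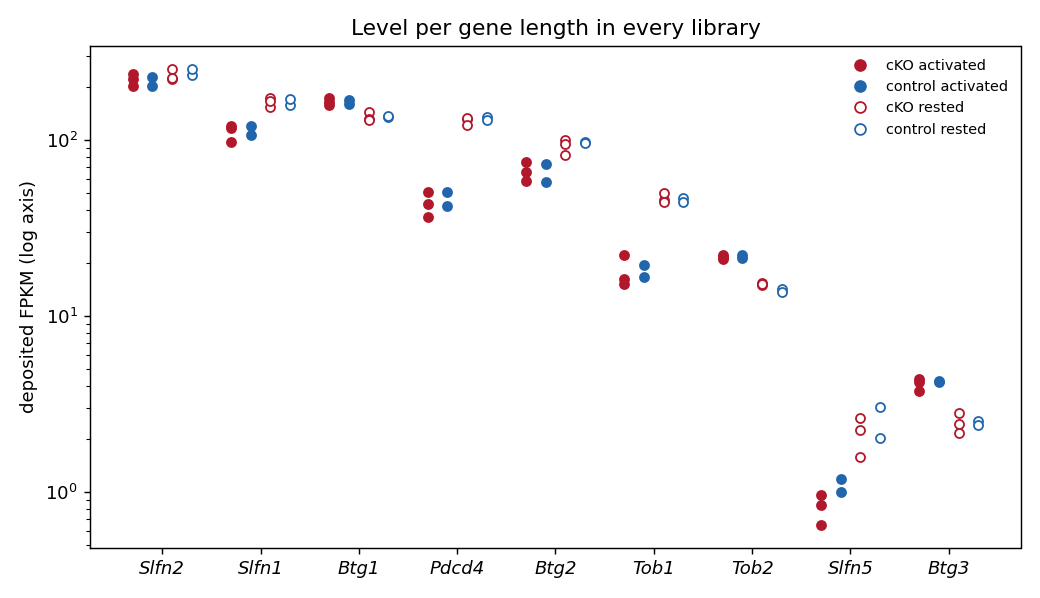
Deposited FPKM of the 9 genes (log axis, genes in the order of rested control cells) in each of 10 libraries; filled points are activated and open points rested, red cKO and blue control. Slfn2 was highest in all 4 groups, and filled points lie above open ones for Btg1, Tob2 and Btg3.

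The comparison of activated with rested cells asks what bead stimulation did to these transcripts within each genotype. The 9 genes split in both genotypes: Pdcd4, Tob1, Slfn5, Btg2 and Slfn1 fell, and Btg3, Tob2 and Btg1 rose. Slfn2 fell in control cells and missed the threshold in cKO cells. By edgeR's quasi-likelihood test, with p adjusted over all genes, 8 of 9 passed in cKO cells (3 higher, 5 lower), where 63.4% of all genes tested were called (31.5% higher, 31.9% lower). In control cells 9 of 9 passed (3 higher, 6 lower), where 56.1% of all genes were called (28.5% higher, 27.6% lower). The median log2 fold change of the 9 was -0.54 in cKO and -0.62 in control cells, and over all genes tested it was -0.01 in cKO and -0.00 in control cells. No library of the activated group overlapped one of the rested group for 8 of the 9 in cKO cells, against 66.9% of all genes, and for 9 in control cells, against 76.8%. Activation changed most genes, so these shares alone say little of the 9.

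Pdcd4, the translation inhibitor, had the largest change of the 9. It stood at 132, 154 and 112.5 CPM in activated cKO mice 1, 2 and 3 and at 155 and 129 CPM in activated control mice 1 and 2. In rested cells it stood at 424, 424 and 387 CPM in cKO mice and at 432.5 and 414 CPM in control mice. The lowest rested library thus lay far above the highest activated one. In every mouse the activated level was between 0.291 and 0.364 times the rested one. The fitted log2 fold change was -1.64 (SE 0.07, adjusted p = 5.8e-10 by edgeR) in cKO and -1.58 (SE 0.09, adjusted p = 9.7e-09) in control cells, a 3.11-fold and a 3.00-fold fall.

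Tob1 fell almost as far. Its CPM were 36.2, 49.7 and 34.2 in activated cKO and 43.0 and 37.4 in activated control mice, against 106, 116 and 103 in rested cKO and 109 and 103 in rested control mice. Mouse 2 was the highest of the cKO mice in both states, and activated and rested libraries did not overlap. The log2 fold change was -1.45 (SE 0.10, adjusted p = 3.46e-07 by edgeR) in cKO and -1.40 (SE 0.13, adjusted p = 3.57e-06) in control cells. Its paralogue Tob2 went the other way. Activated cells held 136, 140.3 and 144 CPM in cKO and 137 and 145 CPM in control mice, against 102, 105 and 103 CPM in rested cKO and 97.8 and 93.3 CPM in rested control mice. Each activated library lay above each rested one. The log2 fold change of Tob2 was 0.44 (SE 0.05, adjusted p = 3.37e-06 by edgeR) in cKO and 0.57 (SE 0.06, adjusted p = 3.53e-06) in control cells.

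The BTG genes split as well. Btg2, known elsewhere as a p53 target, held 176, 201 and 157 CPM in activated cKO and 195 and 156 CPM in activated control mice. Rested cells held 280.4, 266 and 228 CPM in cKO and 274 and 267 CPM in control mice, so activated libraries lay below rested ones. It fell by 0.54 on the log2 scale in cKO (SE 0.07, adjusted p = 7.38e-06 by edgeR) and by 0.64 in control cells (SE 0.08, adjusted p = 1.56e-05). Btg1, its closest relative, held 849, 881 and 813 CPM in activated cKO and 860.3 and 827 CPM in activated control mice. In rested cells it held 782, 705 and 691 CPM in cKO and 725 and 731 CPM in control mice. All 5 mice had more Btg1 after activation, by 1.08 to 1.25 times, and the groups did not overlap. The log2 fold change was 0.22 (SE 0.05, adjusted p = 0.00262 by edgeR) in cKO and 0.21 (SE 0.07, adjusted p = 0.015) in control cells. The call in control cells ended without control mouse 1 (adjusted p = 0.229), without control mouse 2 (0.0893) and in male libraries alone (0.056).

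Btg3, an antiproliferative member reported to bind E2F1, was low and rose. Activated cells held 14.6, 16.4 and 17.2 CPM in cKO and 16.6 and 16.5 CPM in control mice, against 10.0, 8.94 and 11.4 CPM in rested cKO and 10.4 and 9.92 CPM in rested control mice. These groups did not overlap. Its log2 fold change was 0.67 (SE 0.10, adjusted p = 3.19e-05 by edgeR) in cKO and 0.70 (SE 0.12, adjusted p = 0.000165) in control cells. The overlapping gene Gm49590 had 49 to 102 counts in activated and 40 to 64 counts in rested libraries; its part in the result was not tested.

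Of the 3 neighbouring Schlafen genes, Slfn5 and Slfn1 fell in both genotypes and Slfn2 passed the test in control cells. Slfn5, a long family member with a helicase-like part, held 5.20, 4.02 and 5.99 CPM in activated cKO and 6.16 and 7.40 CPM in activated control mice. Rested cells held 17.1, 10.3 and 14.4 CPM in cKO and 13.1 and 19.6 CPM in control mice, above every activated library. The rested cKO libraries of Slfn5 differed among themselves with a coefficient of variation of 24.5%, and the rested control libraries with 28.1%, the widest spread among the 9 in these 2 groups. Its log2 fold change was -1.47 (SE 0.18, adjusted p = 3.14e-05 by edgeR) in cKO and -1.26 (SE 0.22, adjusted p = 0.000533) in control cells. In male libraries alone the call in control cells ended (adjusted p = 0.0684).

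Slfn1, a short family member that slows thymocyte growth when overexpressed in mice, held 212, 216 and 177 CPM in activated cKO and 216 and 194 CPM in activated control mice. Rested cells held 329, 293 and 313 CPM in cKO and 302 and 325.5 CPM in control mice, all above the activated libraries. It fell by 0.63 on the log2 scale in cKO (SE 0.07, adjusted p = 5.87e-06 by edgeR) and by 0.62 in control cells (SE 0.09, adjusted p = 6.54e-05). Slfn2 held 359, 327 and 383 CPM in activated cKO and 325 and 370.5 CPM in activated control mice. Rested cells held 429, 378 and 378 CPM in cKO and 398 and 429 CPM in control mice. Here the cKO groups overlapped, since cKO mouse 3 had 1.01 times its rested level after activation while the other 4 mice had between 0.816 and 0.865 times theirs. The log2 fold change was -0.15 (SE 0.07, adjusted p = 0.0735 by edgeR) in cKO and -0.25 (SE 0.09, adjusted p = 0.0223) in control cells. In cKO cells Slfn2 passed without cKO mouse 3 (adjusted p = 0.0212), in male libraries alone (0.0351) and with no low-count filter (0.0481). The call in control cells ended without control mouse 1 (adjusted p = 0.207), without control mouse 2 (0.114), in male libraries alone (0.059), with library totals in place of TMM, an alternative added after the data were seen (0.073), and on log2(FPKM + 0.5) (0.124). The interaction, which tests whether the change differed with genotype, gave Slfn2 a log2 difference of 0.10 (95% interval -0.14 to 0.34, adjusted p = 1.0 by edgeR).

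**Figure D2:**
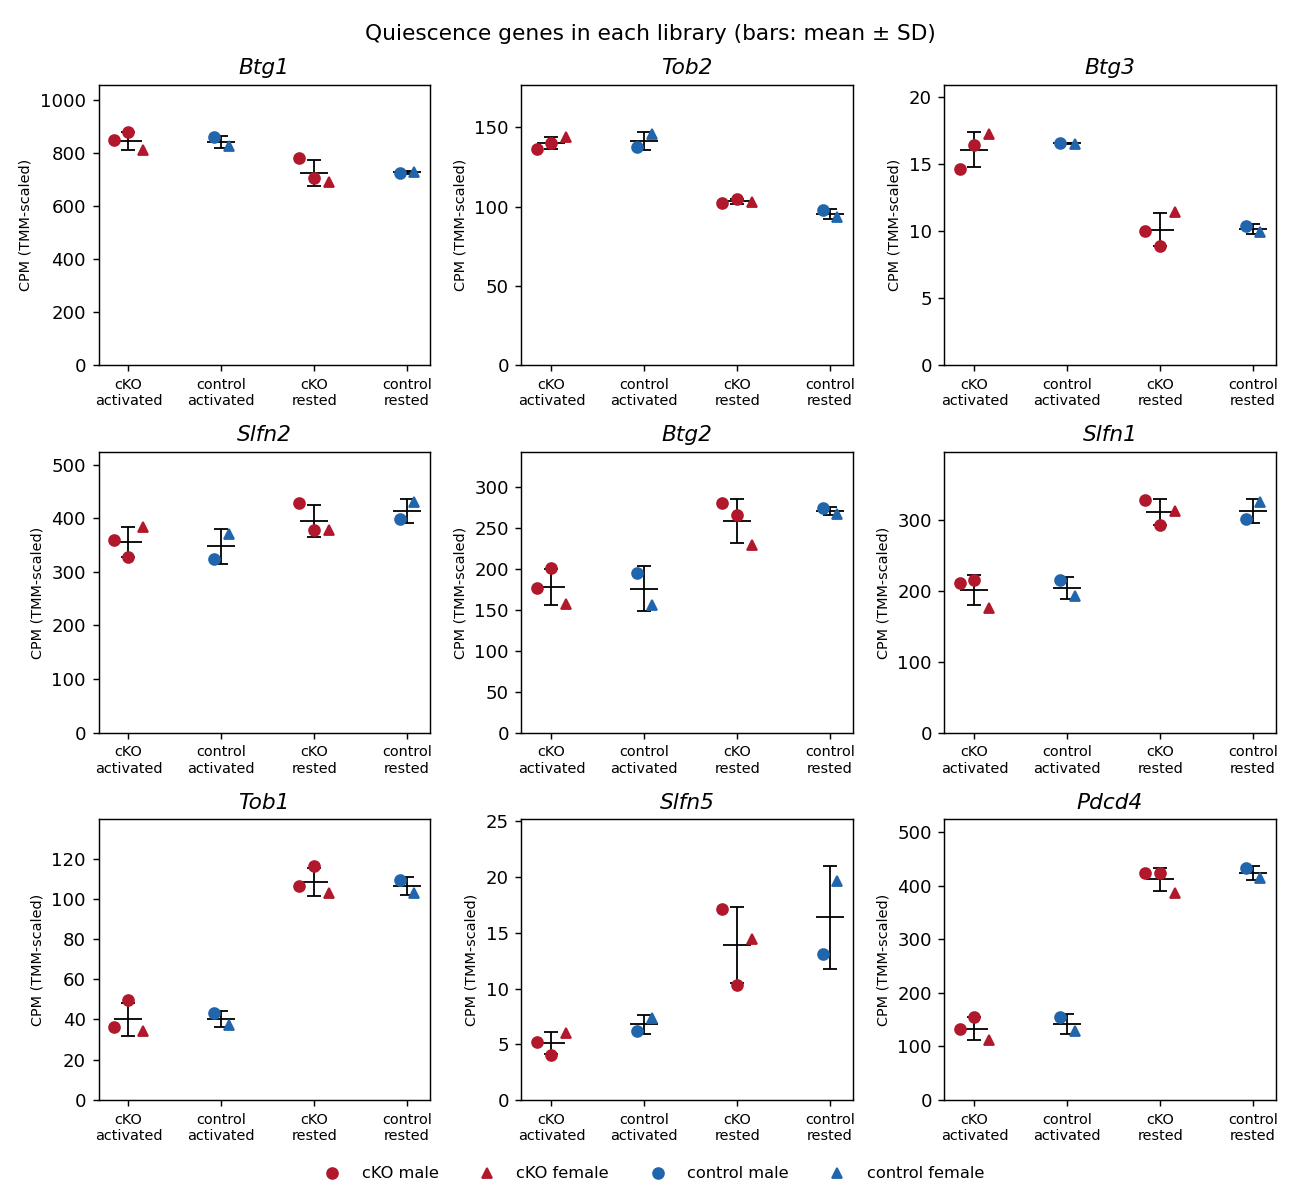
TMM-scaled CPM of each gene in each of the 10 libraries, with the mean ± SD as black bars (n = 3 cKO, n = 2 control mice); circles are male and triangles female mice. Activated libraries lie above rested ones for Btg1, Tob2 and Btg3 and below them for Btg2, Slfn1, Tob1, Slfn5 and Pdcd4.

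**Figure D3:**
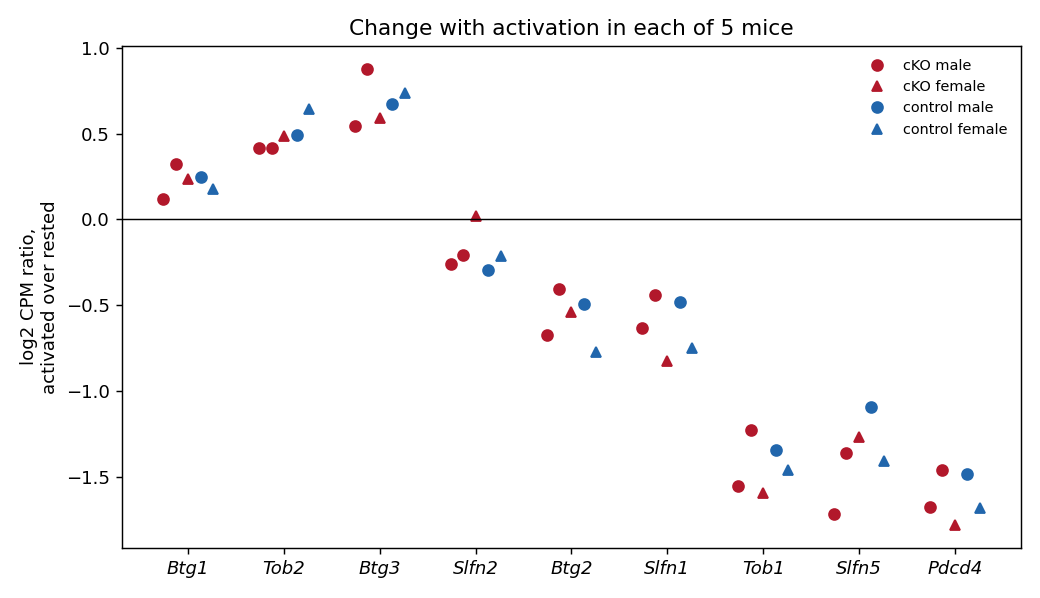
Log2 ratio of activated to rested CPM in each of 5 mice, red cKO and blue control, circles male and triangles female. Every mouse lies on the same side of 0 for 8 genes, from -1.78 for Pdcd4 to 0.88 for Btg3; for Slfn2 1 mouse lies at 0.02 and 4 below 0.

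RefSeq promoters (build GRCm38.p6, 250 bases before to 50 after the start) were matched by symbol for all 9 genes. The first pair is shown because Btg1 and Btg2 moved in opposite directions. Capitals mark GTAAACA, the core that FOXO factors bind, and the cAMP response element TGACGTCA or its shortened form ACGTCA, each searched on both strands; ACGTCA lies within TGACGTCA. These motifs were chosen with the sequences in view. Btg1 is at chr10:96616751-96617050, plus strand, and Btg2 at chr1:134079106-134079405, minus strand.
Btg1: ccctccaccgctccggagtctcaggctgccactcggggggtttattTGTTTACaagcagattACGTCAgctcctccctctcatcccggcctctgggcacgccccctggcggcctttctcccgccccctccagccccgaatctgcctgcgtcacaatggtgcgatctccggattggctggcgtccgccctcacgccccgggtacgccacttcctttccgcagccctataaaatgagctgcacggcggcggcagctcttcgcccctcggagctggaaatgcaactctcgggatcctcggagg
Btg2: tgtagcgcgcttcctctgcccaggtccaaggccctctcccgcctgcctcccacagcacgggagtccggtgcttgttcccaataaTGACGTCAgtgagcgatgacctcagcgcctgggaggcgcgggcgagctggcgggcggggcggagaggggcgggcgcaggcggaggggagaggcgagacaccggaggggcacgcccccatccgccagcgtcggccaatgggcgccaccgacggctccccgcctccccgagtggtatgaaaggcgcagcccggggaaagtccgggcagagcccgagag
Btg1 held GTAAACA, on the other strand and so printed as TGTTTAC, and ACGTCA, while Btg2 held the full TGACGTCA. Among 32851 RefSeq promoters of the same length 3.65% held GTAAACA, 1.79% TGACGTCA and 7.51% ACGTCA. None of the 3 motifs was found in the windows of the other 7 genes. The CACCC box, to which KLF factors bind, was found in windows of Btg3, Tob1, Tob2 and Slfn2, and in 57.5% of all promoters.

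A second pair sets apart 2 genes that both fell more than 2-fold, with capitals at each CG, the pair of bases that marks CpG-rich promoters. The downstream start of 2 listed for Pdcd4 is at chr19:53903101-53903400, plus strand, and Slfn5 is at chr11:82951852-82952151, plus strand.
Pdcd4: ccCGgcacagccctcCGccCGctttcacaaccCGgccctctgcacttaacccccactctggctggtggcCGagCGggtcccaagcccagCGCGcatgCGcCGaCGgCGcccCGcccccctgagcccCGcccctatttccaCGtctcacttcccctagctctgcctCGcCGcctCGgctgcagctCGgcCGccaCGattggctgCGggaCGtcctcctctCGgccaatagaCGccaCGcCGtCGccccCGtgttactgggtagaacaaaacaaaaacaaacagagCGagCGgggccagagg
Slfn5: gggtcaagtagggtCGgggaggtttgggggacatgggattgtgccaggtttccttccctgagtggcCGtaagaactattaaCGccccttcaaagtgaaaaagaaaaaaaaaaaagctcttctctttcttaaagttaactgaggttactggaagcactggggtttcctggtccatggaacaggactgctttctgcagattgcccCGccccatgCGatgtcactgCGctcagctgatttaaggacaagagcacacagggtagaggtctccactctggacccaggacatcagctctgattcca
Pdcd4 held 31 CG pairs in this window and Slfn5 held 6, against a median of 7 over all promoters. Slfn1 held 6 and Slfn2 held 2, while Btg1, Btg2, Tob1 and Tob2 held 25, 32, 40 and 17. Btg3 held 9 and 37 at its 2 starts, and the upstream start of Pdcd4 held 2. The 3 Schlafen windows were thus under the median, and at least 1 window of each BTG, TOB and Pdcd4 gene was above it.

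The genotype comparisons ask whether the 9 genes depended on Dusp2, first in activated and then in rested cells. None of the 9 passed the test in either state. In activated cells 0 of 9 were called, where 0.0422% of all genes tested were called, and in rested cells 0 of 9, again with 0.0422% of all genes called (0.0264% higher and 0.0158% lower in each state). Below an unadjusted p of 0.05 there were 1142 genes among all tested in activated and 783 in rested cells, and the smallest p among the 9 was 0.104 for Slfn5 in activated and 0.0583 for Tob2 in rested cells by edgeR. In activated cells the median log2 fold change of the 9 was -0.03, against 0.00 over all genes, and in rested cells it was -0.02, against 0.00.

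Slfn5 had the lowest fitted value in activated cells. Its 3 activated cKO libraries, at 4.02 to 5.99 CPM, lay below both activated control libraries, at 6.16 and 7.40 CPM. The log2 fold change was -0.37 (95% interval -0.83 to 0.09, adjusted p = 0.84 by edgeR), so a fall of up to 0.83 on the log2 scale lies within the interval. In rested cells Slfn5 overlapped between genotypes, with a log2 fold change of -0.16 (interval -0.60 to 0.28, adjusted p = 1.0). In male mice alone it was 0.06 in rested and -0.41 in activated cells. It was the only one of the 9 whose activated libraries did not overlap between genotypes, against 17.1% of all genes.

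Tob2 was the only one of the 9 whose rested libraries did not overlap between genotypes, which 17.7% of all genes did. It held 102 to 105 CPM in rested cKO cells against 93.3 and 97.8 CPM in rested control cells (log2 fold change 0.12, interval -0.00 to 0.24, adjusted p = 1.0 by edgeR). In activated cells its log2 fold change was -0.01 (interval -0.13 to 0.11, adjusted p = 0.985). Pdcd4 was at -0.13 (interval -0.30 to 0.04, adjusted p = 0.841) in activated and -0.08 (interval -0.24 to 0.09, adjusted p = 1.0) in rested cells. Btg2 was at -0.02 (interval -0.17 to 0.14) in activated and -0.11 (interval -0.27 to 0.05) in rested cells. Within male mice Tob2 had 0.02 in activated and 0.10 in rested cells, and Pdcd4 had -0.06 in activated and -0.01 in rested cells. Female mice gave 1 mouse a genotype and no test of their own.

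For the 5 other genes the intervals were as follows. Btg1 had the narrowest pair, at -0.14 to 0.13 in activated and -0.15 to 0.12 in rested cells. Those of Slfn1 ran from -0.22 to 0.14 in activated and from -0.20 to 0.16 in rested cells, and those of Slfn2 from -0.12 to 0.22 in activated and from -0.22 to 0.12 in rested cells. Tob1 was estimated less closely, at -0.30 to 0.22 in activated and -0.25 to 0.25 in rested cells, as was Btg3, at -0.25 to 0.20 in activated and -0.23 to 0.24 in rested cells. A log2 difference of 0.5 in either direction thus lies outside the intervals of all genes but Slfn5. These intervals bound the differences; they do not show that the genotypes are alike.

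**Figure D4:**
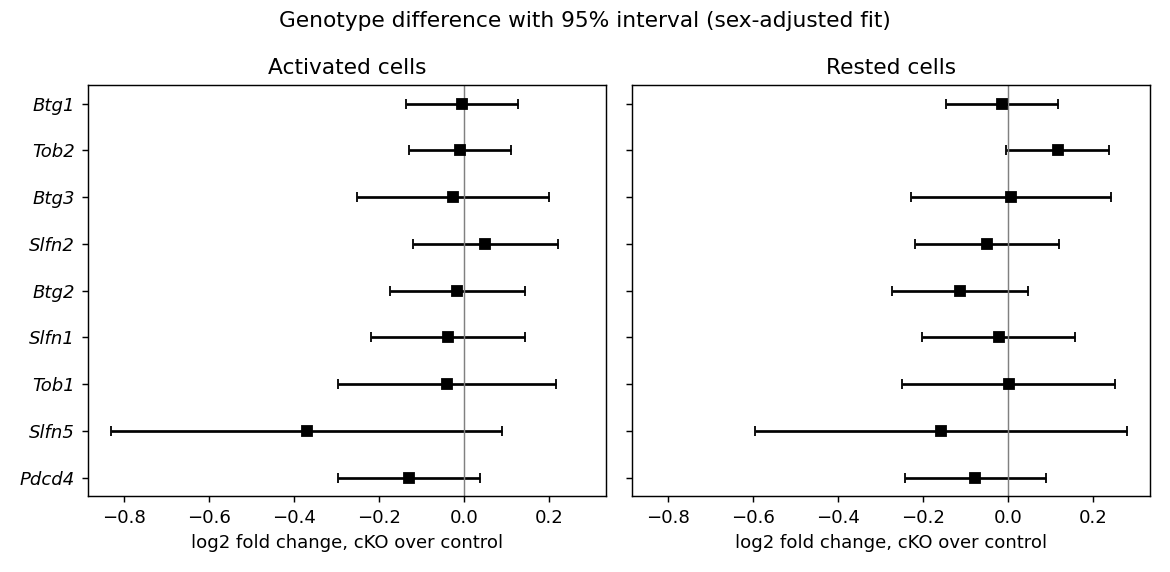
Fitted log2 fold change of cKO over control for each gene with its 95% interval (sex-adjusted edgeR fit), activated cells left and rested cells right. All 18 intervals include 0, and those of Slfn5 are widest.

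The interaction of genotype and activation gave 0 called genes of 9, with 0.0% of all genes called by edgeR; 519 of all genes had an unadjusted p below 0.05, and DESeq2's Wald test called 3 of all genes and 0 of the 9. Tob2 had the smallest p of the 9 (0.134), with a log2 difference of -0.12 (95% interval -0.29 to 0.04, adjusted p = 1.0 by edgeR). For Slfn5 the difference was -0.21 (interval -0.84 to 0.42) and for Pdcd4 -0.05 (interval -0.28 to 0.18). For Tob1 the interval ran from -0.40 to 0.31. A difference between genotypes in the activation change thus remained possible up to the ends of these intervals.

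The other genes of these families were mostly low. Slfn8 fell with activation, to 58.1 ± 2.71 CPM in activated cKO and 63.5 ± 2.02 CPM in activated control cells, against 99.8 ± 2.88 CPM in rested cKO and 100.3 ± 1.18 CPM in rested control cells (log2 fold changes -0.78 in cKO and -0.66 in control cells, adjusted p = 2.47e-08 and 1.39e-06 by edgeR). Slfn9 fell in cKO cells, to 8.97 ± 1.02 CPM in activated against 11.3 ± 0.338 CPM in rested cells (-0.33, adjusted p = 0.0117 by edgeR). In control cells Slfn9 stood at 8.47 ± 0.204 CPM in activated against 10.2 ± 0.509 CPM in rested cells and did not pass (-0.26, adjusted p = 0.0955), and the interaction was -0.07 (adjusted p = 1.0). Of 7 such genes 4 were tested, and 2 passed in cKO and 1 in control cells, all lower, where 63.4% of all genes were called in cKO and 56.1% in control cells. Slfn3 and Slfn4 were tested and did not pass, at log2 fold changes of -0.14 and 0.54 in cKO and 0.03 and 0.63 in control cells. Btg4 had 0 counts in all libraries, Slfn14 at most 6 and Slfnl1 at most 14. Schlafen genes of this cluster resemble each other, so reads of close copies may be shared or lost.

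Genes of the CCR4-NOT deadenylase, which BTG and TOB proteins bind, of the PAN deadenylase and of poly(A)-binding proteins moved both ways. Of 15 tested 5 rose and 5 fell in cKO cells, and 5 rose and 4 fell in control cells (medians -0.01 in cKO and 0.01 in control cells). The called share, 66.7% in cKO and 60.0% in control cells, was near that of all genes, 63.4% in cKO and 56.1% in control cells. Pabpc4, a poly(A)-binding protein gene, rose to 182 ± 23.1 CPM in activated cKO and 166 ± 16.3 CPM in activated control cells, against 70.2 ± 1.49 CPM and 68.6 ± 1.71 CPM in rested cKO and control cells (log2 fold changes 1.37 in cKO and 1.27 in control cells). Cnot6l, a deadenylase subunit, changed by -0.73 in cKO and -0.59 in control cells on the log2 scale, and Pan3, which partners the PAN2 deadenylase, by -0.67 in cKO and -0.61 in control cells. Cnot9, another CCR4-NOT subunit, rose by 0.61 in cKO and 0.55 in control cells. For these 4 genes the largest adjusted p was 8.01e-05 by edgeR.

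Genes of the eIF4F cap-binding complex, further genes with related names, inhibitors of the complex and a few genes of PDCD4 turnover made up 1 list. In each genotype 12 of its 17 genes rose and 1 fell (medians 0.27 in cKO and 0.33 in control cells), where 31.5% of all genes rose in cKO and 28.5% in control cells. Eif4a1 is 1 of the genes of the helicase eIF4A, which PDCD4 binds. It rose to 863 ± 110 CPM in activated cKO and 804 ± 106 CPM in activated control cells. In rested cells it held 255 ± 3.58 CPM in cKO and 249.9 ± 2.24 CPM in control mice. Its log2 fold change was 1.75 in cKO and 1.68 in control cells (adjusted p = 3.47e-10 and 6.58e-09 by edgeR). Eif4e, the cap-binding protein gene, rose by 1.90 in cKO and 1.74 in control cells, and Fbxw11, a subunit of a ubiquitin ligase that targets PDCD4, by 0.92 in both. The 1 that fell was Eif4ebp2, an inhibitor of eIF4E, at -0.88 in cKO and -0.85 in control cells. Eif4ebp1, another such inhibitor, which like the genes after it was named with its values seen, rose by 2.53 in cKO and 2.42 in control cells. Among the turnover genes the S6 kinase gene Rps6kb2 rose by 0.23 in cKO and 0.29 in control cells. Btrc and Rps6kb1, the paralogues of Fbxw11 and Rps6kb2, did not pass, at -0.05 and 0.10 in cKO and -0.18 and 0.06 in control cells. Of the other genes listed under an Eif4a name, Eif4a3 rose by 0.83 in cKO and 0.81 in control cells. Eif4a2 did not pass, at -0.04 in cKO and -0.07 in control cells.

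Other regulators of T cell quiescence fell in most cases. In each genotype 22 of 28 tested fell and 4 rose (medians -0.93 in cKO and -0.89 in control cells). Of all genes 31.9% fell in cKO and 27.6% in control cells. This list, like the other lists, was chosen with earlier results of these data known, so these shares describe it and test nothing. Klf3, a transcriptional repressor, fell to 152 ± 20.5 CPM in activated cKO and 176 ± 12.3 CPM in activated control cells, against 508 ± 17.5 CPM and 537 ± 10.4 CPM in rested cKO and control cells (log2 fold changes -1.74 in cKO and -1.61 in control cells). Ets1, a transcription factor of naive T cells, changed by -1.05 in cKO and -1.06 in control cells on the log2 scale. The values were -1.42 in cKO and -1.35 in control cells for Ccng2, an atypical cyclin, and -1.01 in cKO and -0.93 in control cells for Rbl2, an RB family gene. For these 4 genes the largest adjusted p was 3.07e-07 by edgeR. The 4 that rose, named after their values were seen, were Foxj1, Klf4, Bach2 and Foxp1. Foxj1 rose by 3.21 in cKO (SE 0.39) and 3.58 in control cells (SE 0.52), so its fold changes are imprecise. The others rose less: Klf4 (cKO 0.81, control 0.65), Bach2 (cKO 0.21, control 0.22) and Foxp1 (cKO 0.20, control 0.23). As for the 9 genes, 0 members of these lists passed between genotypes in either state, where the share of all genes called was 0.0422%.

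Proliferation and growth genes gave the other side. In each genotype 18 of 20 rose and 1 fell (medians 1.72 in cKO and 1.56 in control cells), against 31.5% of all genes higher in cKO and 28.5% in control cells. Odc1, which starts polyamine synthesis, rose to 409.5 ± 73.3 CPM in activated cKO and 363 ± 45.4 CPM in activated control cells, against 58.0 ± 5.28 CPM and 54.0 ± 1.18 CPM in rested cKO and control cells. Pcna, the replication clamp, rose by 1.14 in cKO and 1.09 in control cells and Top2a, the topoisomerase of dividing cells, by 4.20 in cKO and 3.83 in control cells on the log2 scale. Myc, a driver of growth, rose by 3.31 in cKO and 3.27 in control cells. Ccna2, a mitotic cyclin, rose by 6.16 in cKO (SE 0.38) and 4.99 in control cells (SE 0.44). Its rested level was near 0, at 0.076 ± 0.039 CPM in rested cKO against 5.59 ± 2.63 CPM in activated cKO cells. These fold changes of Ccna2 are therefore imprecise, and its interaction was 1.16 (95% interval -0.46 to 2.79). The gene that fell, named after its values were seen, was the D-type cyclin Ccnd3, at -0.74 in cKO and -0.85 in control cells, and the 1 that did not pass was Ccne1.

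**Figure D5:**
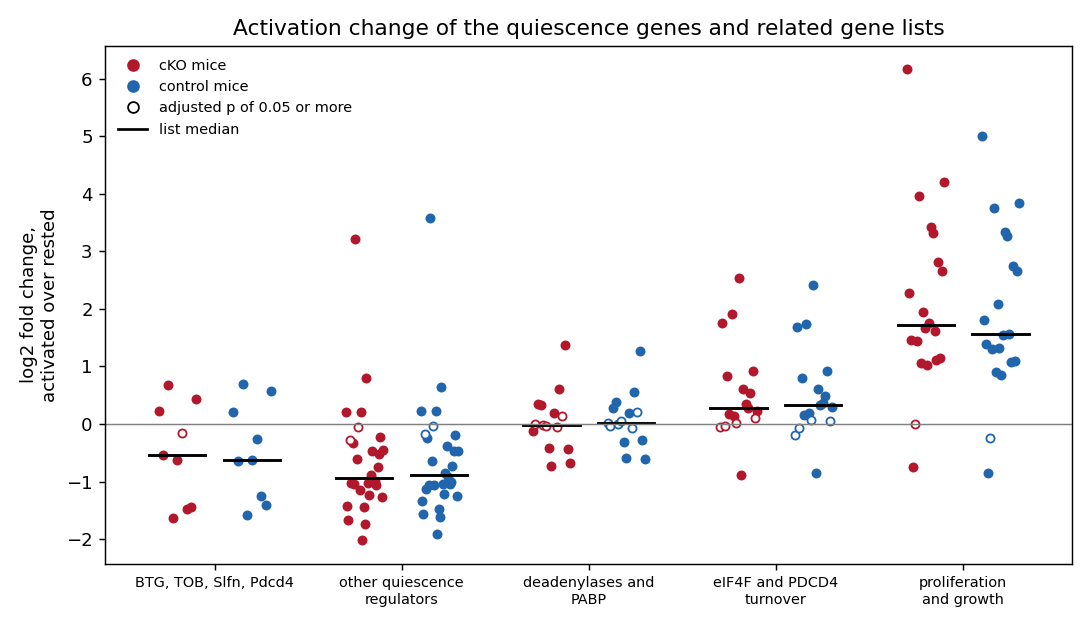
Log2 fold change of activated over rested cells for each gene of 5 lists, red cKO and blue control; open points had an adjusted p of 0.05 or more and black lines are list medians. The BTG, TOB, Schlafen and Pdcd4 genes lie on both sides of 0. In each genotype 22 of 28 other quiescence regulators fell and 18 of 20 proliferation genes rose. The lists were chosen with earlier results of these data known.

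Genes with the most similar profile were found by the root mean square difference of centred log2 CPM over the 10 libraries, among 10397 genes averaging 5 CPM or more. Slfn1 was matched most closely, by Zfp212 (0.02) and Cdan1 (0.04). Pdcd4 was nearest to Hid1 (0.03) and Slc28a2 (0.05), and Tob1 to Prxl2c (0.04) and Cnp (0.05). For the rising genes the nearest were Vps52 (0.03) and Ccdc88b (0.04) for Btg1, Elp3 (0.04) and Cwf19l1 (0.04) for Tob2, and Nfkbie (0.07) and Dcaf13 (0.07) for Btg3. Btg2 lay nearest to Igflr1 (0.06) and Lime1 (0.06), and Slfn2 to Btbd1 (0.04) and Trbj1-1 (0.04). Slfn5 had no close match, with Sh3pxd2a at 0.21 and Tspan32 at 0.23. It was low, with coefficients of variation within groups of 12.9% to 28.1%, whose part in this distance was not tested. Slfn5 changed with activation by -1.47 in cKO and -1.26 in control cells. Sh3pxd2a changed by -1.20 in cKO and -1.13 in control cells, and Tspan32 by -1.27 in cKO and -1.31 in control cells. Within the 9, Btg2 and Slfn1 (0.10) and Tob1 and Pdcd4 (0.12) were the closest pairs, and Btg3 and Pdcd4 (1.16) the most distant. With 5 activated and 5 rested libraries this distance mainly reads the activation change.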

How the data were processed

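The 10 libraries came from a stranded mRNA preparation of mouse splenic CD8+ T cells, per the labels' protocols. The submitters' processing notes name mm39 as build and Subread, FastQC and MultiQC as tools; the aligner, the annotation and any use of strand in counting were not given in the sources used here. The authors deposited raw counts per gene. Their deposited FPKM equal the count divided by length + 1 and by the library's sum (largest relative deviation 9.4e-07).

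The counts were fitted with edgeR 4.0.16 under R 4.3.3: TMM scaling, filterByExpr by group, and a robust quasi-likelihood model of group means plus sex on all 10 libraries, with 5 residual degrees of freedom. A gene was called where its Benjamini-Hochberg adjusted p over the 18966 genes tested was below 0.05. The SE is the log2 fold change over the square root of F, and intervals use the test's degrees of freedom. On simulated data with 200 changed genes, a log2 change of 1 or -1 was recovered for 100% of genes in each comparison of 2 groups and for 98% in the interaction. A change of 0.5 was recovered for 66% in the activated and 62% in the rested genotype comparison, and one of -0.5 for 66% and 60%. The interaction recovered 26% at 0.5 and 14% at -0.5, activation in cKO cells 78% and 84%, and activation in control cells 60% and 46%. The simulation gave every gene the same spread, had no sex or mouse effect and left out changed genes of very low level. These rates thus need not hold for genes of wider spread, such as Slfn5. DESeq2 1.42.0 and limma 3.58.1 gave alternatives; Python 3.11.15 made tables and figures.

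No replicate was a repeat of another: their counts differed beyond sampling noise, with a chi-square of 9.23 to 46.0 per degree of freedom. Both libraries of a mouse come from 1 animal, so they pair. Deviations of same-mouse libraries from their groups had correlations of 0.25, 0.15 and 0.33 for cKO mice 1 to 3. For each control mouse the correlation was 0.36, the same value because 2 mice mirror each other. Sex was not removed from these deviations. In the limma-voom fit with sex in the model, the estimated correlation within a mouse was -0.14. Sex coincides with the number that opens the mouse names, so it also stands for what that number marks. The 9 genes, the lists and the alternatives were chosen with earlier results of these data known. By rule, named genes were the 9, Dusp2, per list up to 4 called genes of smallest p with a mean of 5 CPM or more, and per member the 2 nearest profiles. Others were named outside this rule: cell type markers, overlapping genes, Mki67, Ccne1 and further BTG and Schlafen family genes. So were the genes said above to be named with their values seen.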

Additional observations from a re-analysis of the deposited data

How the results depend on the processing

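The directions of the activation changes held in every alternative run, for all 9 genes. Of 288 alternative values 276 kept their side of the threshold, 9 lost the call and 3 gained it; these concern Btg1, Slfn2 and Slfn5, as given above. With the mouse as replicate block, in edgeR and in limma-voom, 3 of the 9 rose and 5 fell in cKO cells, 3 rose and 6 fell in control cells, and no call on the 9 changed. Over all genes the edgeR block gave 11840 calls in cKO and 10352 in control cells. For activation in control cells, leaving out 1 mouse gave 6981 to 10646 calls over all genes, the lowest without control mouse 2.

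None of 405 alternative values for genotype or the interaction passed the threshold for the 9 genes. Over all genes the numbers called moved. In activated cells 8 became 211 with no low-count filter, 5 at 5 CPM or more in 2 libraries, 5 with only the groups compared, 19 with DESeq2's Wald test and 4 on log2(FPKM + 0.5), and 6 to 49 without 1 mouse (49 without cKO mouse 2). In rested cells 8 became 204 with no filter, 5 with the stricter filter, 16 in male libraries, 29 with DESeq2 and 5 on FPKM, and 7 to 25 without 1 mouse (25 without cKO mouse 2, 15 without control mouse 1). For the interaction 0 became 39 with no filter, 2 in male libraries, 3 with DESeq2, and 0 to 3 without 1 mouse (3 without cKO mouse 3). The cause was not tested. The interaction was not refitted with only the groups compared, since it uses all 4.

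Uncalled log2 differences near 0 changed sign in places. In male libraries the values were Btg1 0.014, Tob1 0.0025 and Tob2 0.016 in activated cells, Btg1 0.032, Btg3 -0.14, Slfn1 0.041, Slfn2 0.014 and Slfn5 0.056 at rest, and Btg1 -0.019, Btg2 -0.035 and Btg3 0.052 for the interaction. At rest they were Btg3 -0.0020 and Tob1 -0.0078 with DESeq2 size factors and Btg3 -0.0021 and Tob1 -0.0080 with DESeq2's test. Without a sex term they were Btg1 0.0071 and Btg2 0.019 in activated cells and Btg3 -0.0056 at rest. With no filter they were Btg1 0.00097 in activated cells and Tob1 -0.0035 at rest. With only the groups compared they were Btg1 0.0012 and Tob2 0.0069 in activated cells and Slfn1 0.00017 at rest.

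Without 1 mouse, the ranges in activated cells were -0.023 to 0.024 for Btg1, -0.067 to 0.026 for Btg2, -0.12 to 0.10 for Btg3, -0.19 to 0.047 for Tob1, -0.030 to 0.019 for Tob2, -0.073 to 0.053 for Slfn1 and -0.027 to 0.12 for Slfn2. At rest they were -0.095 to 0.027 for Btg1, -0.12 to 0.14 for Btg3, -0.087 to 0.053 for Tob1, -0.17 to 0.087 for Slfn1, -0.13 to 0.040 for Slfn2 and -0.40 to 0.0061 for Slfn5, and for the interaction -0.023 to 0.072 for Btg1, -0.042 to 0.26 for Btg2, -0.12 to 0.027 for Btg3, -0.16 to 0.040 for Tob1, -0.15 to 0.14 for Slfn1 and -0.15 to 0.072 for Pdcd4. Male libraries, and fits without 1 control mouse, hold 1 control mouse, which is then assumed to vary like the others. With 2 control mice, differences within these intervals could not be resolved.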

Other observations

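Ratios of 2 genes within a library do not depend on scaling, and those of paralogues differed between states. Tob1 stood at 0.266, 0.354 and 0.237 times Tob2 in activated cKO mice 1, 2 and 3 and at 0.313 and 0.257 times in activated control mice, on the CPM scale, which is not per length. In rested cells it stood at 1.04, 1.11 and 1.00 times Tob2 in cKO mice and 1.12 and 1.10 times in control mice. Btg2 over Btg1 was 0.193 to 0.228 in activated cKO and 0.189 and 0.227 in activated control cells, against 0.330 to 0.377 in rested cKO and 0.365 and 0.378 in rested control cells. Slfn1 over Slfn2 was 0.461 to 0.661 in activated cKO and 0.522 and 0.665 in activated control cells, against 0.768 to 0.828 in rested cKO and 0.757 and 0.758 in rested control cells.

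Activated libraries differed among mice in several readouts at once. In activated cKO mice 1, 2 and 3 Mki67, a marker of cycling cells, stood at 19.4, 13.4 and 29.3 CPM, while Pdcd4 stood at 132, 154 and 112.5 CPM and Tob1 at 36.2, 49.7 and 34.2 CPM. In activated control mice 1 and 2 Mki67 stood at 13.2 and 16.6 CPM, Pdcd4 at 155 and 129 CPM and Tob1 at 43.0 and 37.4 CPM. Within each genotype the mouse with the lowest Mki67 had the highest Pdcd4, Tob1, Btg1, Btg2 and Slfn1. The same mouse had the lowest Slfn2 and Slfn5. Slfn2 stood at 359, 327 and 383 CPM in activated cKO and 325 and 370.5 CPM in activated control mice. Slfn5 stood at 5.20, 4.02 and 5.99 CPM in activated cKO and 6.16 and 7.40 CPM in activated control mice. Btg3 and Tob2 held neither place in both genotypes. The summed level of the 20 proliferation genes, which include Mki67, followed the order of Mki67 within each genotype. It was 5856, 4990 and 6731 CPM in activated cKO and 4824 and 6022 CPM in activated control mice. Across genotypes the orders differed, since cKO mouse 1 had more Mki67 than control mouse 2 and a lower sum. The pattern was noticed in these values, and 5 libraries are too few for a correlation. The highest sum of each genotype was that of the female mouse (cKO mouse 3 and control mouse 2), and sex and the number that opens the mouse names cannot be told apart.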
